A study of Rattus norvegicus with 24 samples.

Results

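Chrna7, Cckbr, Mas1 and Oprm1 code for receptors of neuromodulators, and their mRNA was sought in the hippocampus of bred rats. They were chosen by name, and a symbol was taken to an Ensembl identifier through the chromosome 1 genes of the gene table used here. In this way 3 of the 4 symbols were matched among the 32883 genes of the count table: Chrna7 (ENSRNOG00000010853), Cckbr (ENSRNOG00000017679) and Mas1 (ENSRNOG00000014971). Oprm1, the mu opioid receptor, was not matched, because its symbol was not found in that gene table, which is held in part. It was not analysed here, and whether the count table holds its reads was not examined. All 3 matched genes are annotated as protein coding on chromosome 1 of the rat build Rnor6. Chrna7 lies on the minus strand from 123899657 to 124039196, Cckbr on the plus strand from 170262156 to 170272298, and Mas1 on the plus strand from 48077033 to 48108216.

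Chrna7 encodes the alpha7 subunit of the nicotinic acetylcholine receptor, a calcium-permeable ion channel that opens when acetylcholine binds and that occurs at high density in the hippocampus. Cckbr encodes a G protein-coupled receptor for cholecystokinin, a neuropeptide that certain hippocampal interneurons release, and it is often studied in relation to anxiety. Mas1 encodes the G protein-coupled receptor for angiotensin-(1-7), a peptide of the renin-angiotensin system, and is expressed in the hippocampus and the dentate gyrus in particular.

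The study sequenced poly-A RNA of the whole hippocampus of 24 F0 rats, the founders of an intercross. They belonged to generation F37 of 2 lines bred for high or low locomotion in an unfamiliar environment, with 6 male and 6 female bred High Responders (bHR) and 6 male and 6 female bred Low Responders (bLR), and the labels name no treatment. By the labels the males were 151 to 165 days old and the females 187 to 192 days, and 12 family names stand on 1 male and 1 female each. The protocol text and the methods of the study state younger rats and a separate family for every rat, so whether rats with 1 family name are littermates is not known. The sexes were also dissected on different days and, by the study's methods, kept in separate rooms on different light cycles. Sex, age, day of dissection and housing therefore cannot be told apart. The female bHR of family H05, with an RNA integrity number (RIN) of 6.3, was left out, which left 11 bHRs and 12 bLRs, and its values are given beside those of the others. The labels name no transgene or agent, and rats of a line share ancestors. The libraries of the lines also differed on average in RIN (9.59 ± 0.164 in bHRs and 9.32 ± 0.365 in bLRs, SD) and in reads counted (23900000 and 21100000), whose part in the line values was not tested.

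Over the 23 rats, 16824899 to 28443049 reads were counted on genes per library. Levels are given as CPM, the count of a gene relative to all counts of its library after TMM scaling, and 3 counts stood for 0.1055 to 0.1783 CPM. This floor covers counting error only, whereas the intervals of fitted values carry the spread among rats. Of 47 genes listed as cell type markers, 13 could be matched to an identifier. Slc17a7, the vesicular glutamate transporter of hippocampal excitatory neurons, was present at 160 to 1090 CPM. Folr1, a gene of the choroid plexus, ranged from 2.39 to 55.2 CPM, and the summed level of 2 thalamic markers from 6.16 to 19.0 CPM. In bulk tissue, fewer cells of a type and less RNA per cell cannot be told apart.

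The stretches just before the annotated starts of the 3 genes are shown because they differ in base composition. They are the 130 bases before each RefSeq start on build GRCr8, in the direction of the gene, at chr1:126249130-126249259 (minus strand) for Chrna7, chr1:169183448-169183577 (plus strand) for Cckbr and chr1:50427960-50428089 (plus strand) for Mas1. This build is not that of the counts, and capitals mark a match to GGGCGG (GC box) or CACGTG (E box) on either strand.
Chrna7: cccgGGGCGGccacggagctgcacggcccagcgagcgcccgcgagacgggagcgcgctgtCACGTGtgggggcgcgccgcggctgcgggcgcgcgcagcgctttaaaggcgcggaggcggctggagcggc
Cckbr: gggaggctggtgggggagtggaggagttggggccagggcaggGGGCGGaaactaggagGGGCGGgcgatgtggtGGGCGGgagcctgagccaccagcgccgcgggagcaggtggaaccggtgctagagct
Mas1: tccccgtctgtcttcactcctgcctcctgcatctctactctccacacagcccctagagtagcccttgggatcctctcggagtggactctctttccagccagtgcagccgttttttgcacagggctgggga

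The 3 promoters ran from one rich in CpG to one poor in it. Over windows of 300 bases, from 250 before to 50 after the start, Chrna7 had 37 CpG dinucleotides and a GC content of 68.3%, Cckbr 19 and 66.7%, and Mas1 3 and 54.3%. The medians over the 33469 RefSeq promoters of this length were 7 CpG dinucleotides and 51.7%. GGGCGG occurred 2 times in the Chrna7 window, 3 times in that of Cckbr and 0 times in that of Mas1, and in 33.1% of all promoters. CACGTG occurred 1 time, in Chrna7, and in 6.42% of all promoters. TATAAA, the TATA box, was in none of the 3 windows and in 14.2% of all promoters. These are matches of letters, and no binding or methylation was measured.

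All 3 receptors were detected in every rat. The lowest count in any of the 23 libraries was 94 for Chrna7, 15 for Cckbr and 122 for Mas1, and the highest was 712, 191 and 819. Each gene varied several-fold between rats, from 5.95 to 23.0 CPM for Chrna7 (3.87-fold), from 1.08 to 6.17 CPM for Cckbr (5.7-fold) and from 7.72 to 27.4 CPM for Mas1 (3.54-fold). The length of the transcripts was not used, so the levels of the 3 genes are not compared with each other.

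Chrna7, the nicotinic subunit, had its highest and its lowest rat in the same subgroup, the female bHRs. They stood at 23.0 CPM (family H02), 19.5 (H11), 12.6 (H04), 7.54 (H12) and 5.95 (H08), with a mean of 13.7 ± 7.41 CPM (SD, n = 5). Male bHRs ranged from 6.63 to 13.7 CPM with a median of 10.4 and a mean of 10.3 ± 2.72 (SD, n = 6). The bLRs lay inside the range of the bHRs. Male bLRs ran from 6.85 to 12.5 CPM with a median of 9.56 and a mean of 9.37 ± 2.04 (SD, n = 6), and female bLRs from 7.99 to 18.2 CPM with a median of 12.8 and a mean of 13.3 ± 3.76 (SD, n = 6). By mean the order was male bLR, male bHR, female bLR and female bHR, and each step between neighbours was smaller than the SD of at least 1 of the groups it joins. The low-RIN female, at 7.69 CPM, was within the range of its subgroup.

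Cckbr, the cholecystokinin receptor, was the least abundant of the 3 in reads and the most variable. Female bHRs stood at 6.17 CPM (H02), 3.89 (H11), 3.54 (H08), 2.12 (H04) and 1.93 (H12), with a mean of 3.53 ± 1.71 CPM (SD, n = 5). Male bHRs ranged from 1.27 to 4.74 CPM with a median of 2.27 and a mean of 2.51 ± 1.19 (SD, n = 6). The subgroups of either line overlapped, and the same family, H02, gave the highest female and the highest male bHR. Male bLRs ran from 1.08 to 4.19 CPM with a median of 2.06 and a mean of 2.49 ± 1.33 (SD, n = 6). Female bLRs were the most alike, from 2.47 to 4.4 CPM with a median of 3.09 and a mean of 3.3 ± 0.713 (SD, n = 6). The order by mean was male bLR, male bHR, female bLR and female bHR, again with steps within the SD. The low-RIN female had 6.82 CPM, above all 23 other rats.

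Mas1, the angiotensin-(1-7) receptor, reached 26 CPM or more in 1 rat of each subgroup but the female bHRs. Female bHRs stood at 19.6 CPM (H02), 19.4 (H11), 10.4 (H04), 9.11 (H12) and 7.72 (H08), with a mean of 13.2 ± 5.79 CPM (SD, n = 5). Male bHRs ranged from 10 to 27.4 CPM with a median of 15.3 and a mean of 16.8 ± 5.91 (SD, n = 6). The ranges of the bLRs were close to these. Male bLRs ran from 10.8 to 26.2 CPM with a median of 13.9 and a mean of 16.5 ± 6.1 (SD, n = 6), and female bLRs from 10 to 26 CPM with a median of 15.2 and a mean of 16.2 ± 5.54 (SD, n = 6). The order by mean was female bHR, female bLR, male bLR and male bHR, with every step within the SD. The low-RIN female had 19.2 CPM.

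**Figure D1:**
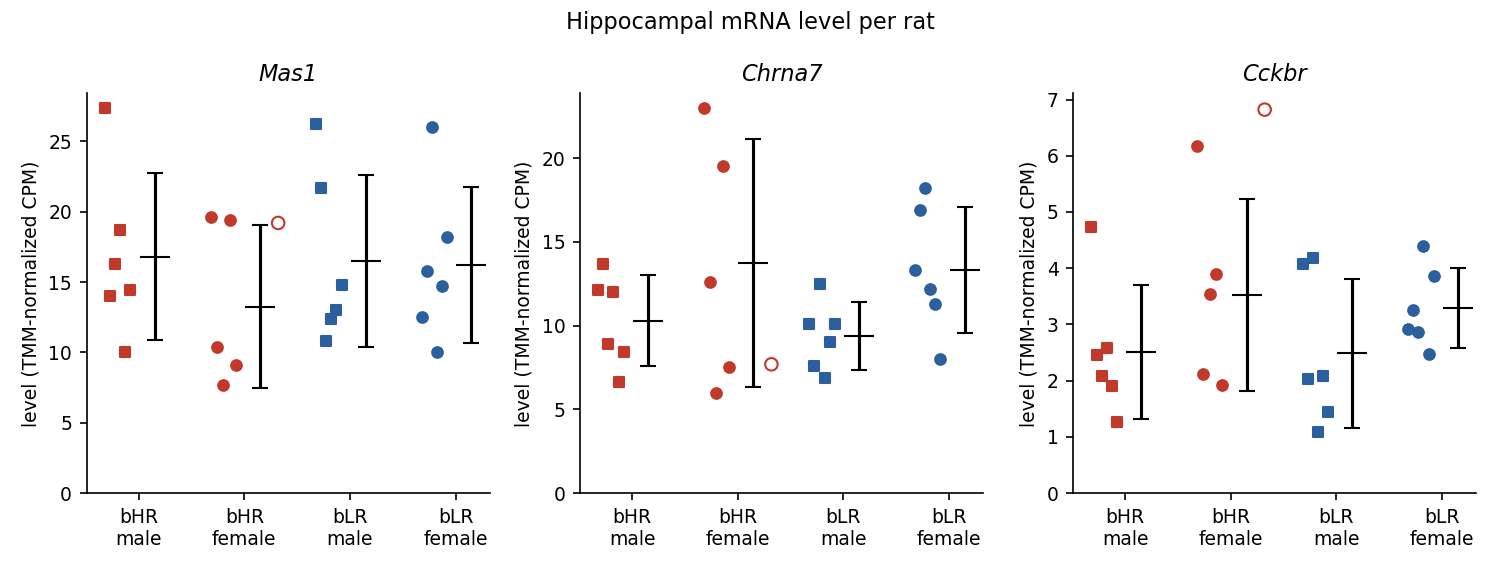
TMM-normalized CPM (vertical axis, from 0) of Mas1, Chrna7 and Cckbr in each rat, by line and sex. Filled points are the 23 rats used, open circles the low-RIN female bHR, horizontal bars the subgroup means and error bars the SD (n = 5 female bHRs, n = 6 in the other subgroups), and the 4 subgroups overlap for each gene.

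The comparison of the lines asks whether breeding for novelty-induced locomotion went with a difference in these receptors. No difference between bHRs and bLRs was detected for any of the 3 genes. The fitted log2 fold changes (bLR vs. bHR) lay between -0.11 and -0.04, each smaller than its SE. Of 13838 genes tested, 1.34% were called for lineage at FDR < 0.10, and 0 of the 3 receptors were, with 0 of 3 at an unadjusted p under 0.05 in edgeR's quasi-likelihood test (9.96% of all genes), in limma-voom and in DESeq2.

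Chrna7 averaged 11.9 ± 5.37 CPM in bHRs (SD, n = 11) and 11.3 ± 3.54 CPM in bLRs (SD, n = 12). Its log2 fold change was -0.04 (SE 0.14, 95% interval -0.33 to 0.25, FDR = 0.963, the quasi-likelihood test of edgeR, adjusted over all genes by Benjamini and Hochberg), or a ratio between 0.794 and 1.19. All 12 bLRs and 7 of the 11 bHRs lay in the range that the lines shared.

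Cckbr averaged 2.97 ± 1.47 CPM in bHRs (SD, n = 11) and 2.89 ± 1.1 CPM in bLRs (SD, n = 12). Its log2 fold change was -0.11 (SE 0.21, 95% interval -0.54 to 0.31, FDR = 0.906, same test), or a ratio between 0.689 and 1.24, the widest interval of the 3. In the shared range lay 11 of 12 bLRs and 9 of 11 bHRs.

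Mas1 averaged 15.2 ± 5.86 CPM in bHRs (SD, n = 11) and 16.3 ± 5.56 CPM in bLRs (SD, n = 12). The means were higher in bLRs while the fitted log2 fold change was -0.06 (SE 0.13, 95% interval -0.34 to 0.21, FDR = 0.922, same test), or a ratio between 0.793 and 1.15. The model also holds sex, %rRNA (the share of ribosomal RNA in a library) and %intergenic (the share outside genes), and %intergenic averaged 9.83 ± 1.35 in bHRs and 10.7 ± 1.09 in bLRs (SD). Without %rRNA and %intergenic in the model the log2 fold change of Mas1 was 0.12, and with %rRNA alone it was 0.21, neither of which was called (FDR = 0.882 and 0.516). With all 24 rats the log2 fold changes were 0.01 for Chrna7, -0.18 for Cckbr and -0.02 for Mas1. Leaving out single rats moved them from -0.13 to 0.03, from -0.29 to 0.01 and from -0.21 to 0.01. A p above the threshold does not show that the lines are equal, and the intervals give the differences that the data still allow.

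**Figure D2:**
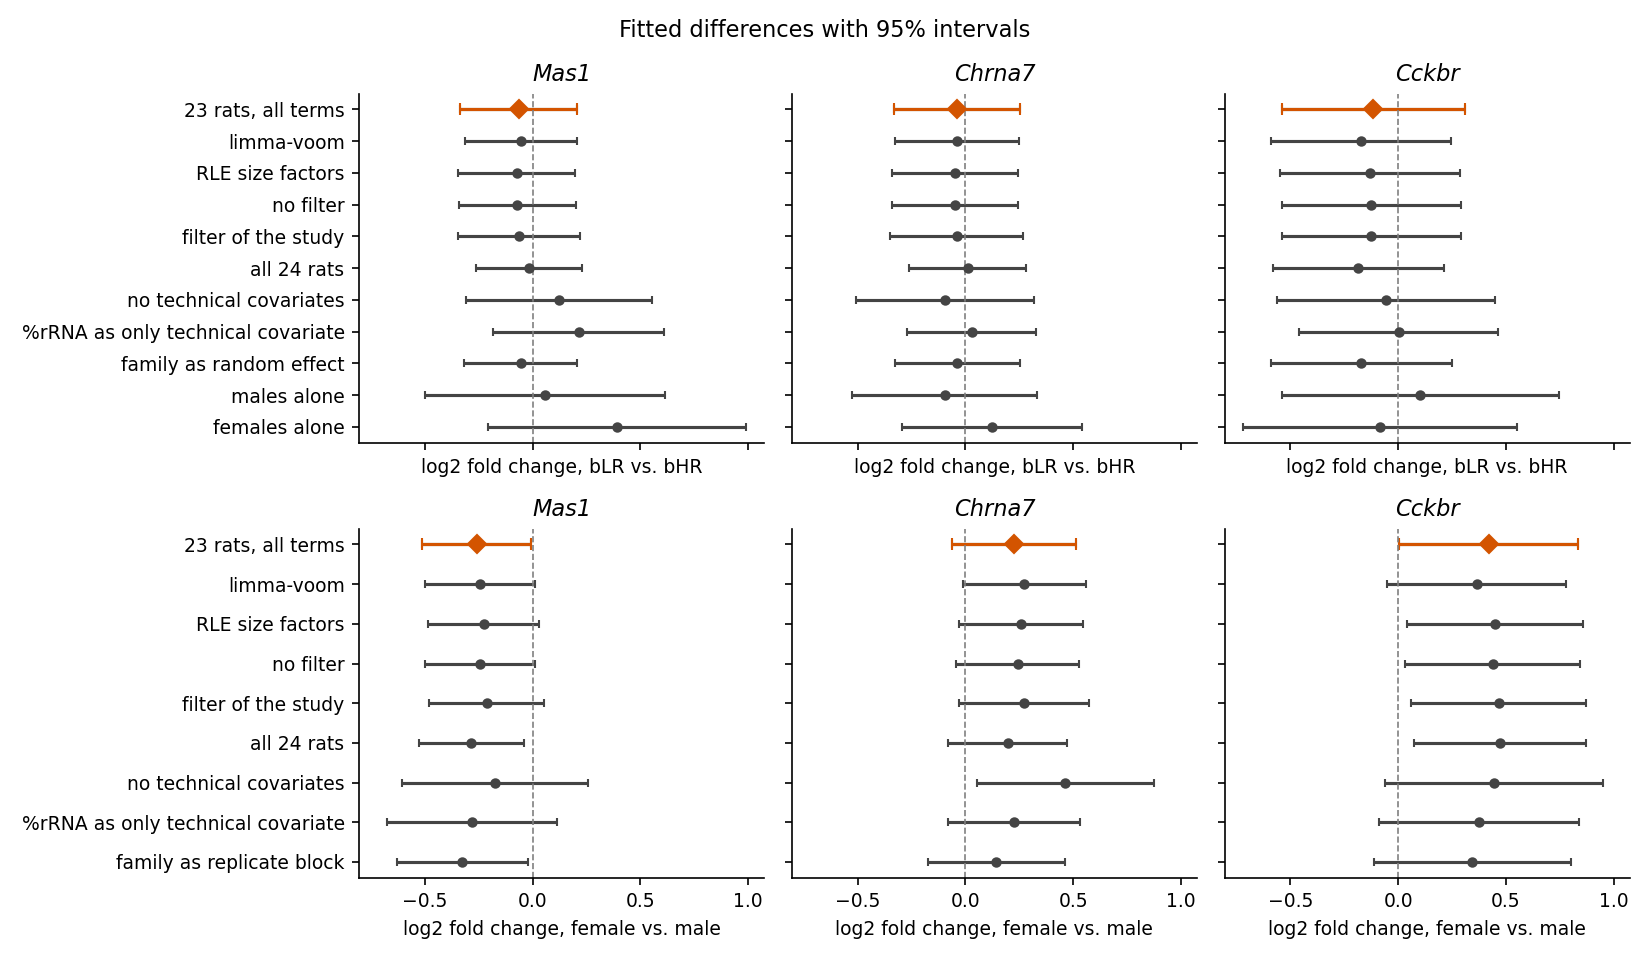
Fitted log2 fold changes (horizontal axis) with 95% intervals for the line difference (upper row, bLR vs. bHR) and the sex difference (lower row, female vs. male) of Mas1, Chrna7 and Cckbr. Diamonds are the fits with 23 rats, sex, lineage, %rRNA and %intergenic, and circles are the alternatives (DESeq2, which was run without such intervals, is not drawn). All intervals of the line difference include 0.

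The sexes here also differed in age, day of dissection and housing, and no sex difference passed the threshold for the 3 genes. Cckbr had a log2 fold change (female vs. male) of 0.42 (SE 0.2, 95% interval 0.01 to 0.83, unadjusted p = 0.0469, FDR = 0.437, edgeR's quasi-likelihood test). Mas1 had a log2 fold change of -0.26 (SE 0.12, 95% interval -0.51 to -0.01, unadjusted p = 0.0449, FDR = 0.434, same test). Chrna7 had one of 0.23 (SE 0.14, 95% interval -0.06 to 0.51, FDR = 0.541, same test), and of 0.46 (SE 0.2, unadjusted p = 0.0288, FDR = 0.731) without %rRNA and %intergenic in the model. Over all genes 0.354% were called for sex, and 0 of the 3 receptors were. At an unadjusted p under 0.05 there were 2 of 3 in this test, beside 11.2% of all genes, and 0 of 3 in limma-voom and 1 of 3 (Cckbr) in DESeq2.

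In CPM, Cckbr ranged from 1.08 to 4.74 in the 12 males (median 2.09) and from 1.93 to 6.17 in the 11 females (median 3.25). Chrna7 ranged from 6.63 to 13.7 in males (median 9.56) and from 5.95 to 23.0 in females (median 12.6). Mas1 ranged from 10 to 27.4 in males (median 14.6) and from 7.72 to 26 in females (median 14.7). The sexes overlapped for all 3 genes. With the labelled family as a replicate block, which compares the male and the female of a family, the log2 fold changes were 0.35 for Cckbr, 0.14 for Chrna7 and -0.33 for Mas1, and 0 of the 3 were called (FDR = 0.65, 0.796 and 0.545). The summed level of 4 blood genes (Hbb, Hba-a1, Hba-a2 and Alas2) ran from 686 to 4550 CPM in male bHRs, from 698 to 3890 in male bLRs, from 49.6 to 966 in female bHRs and from 117 to 470 in female bLRs, and all 4 were called lower in females. Its part in the sex values of the receptors was not tested.

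A different line effect in males and females was not detected for any receptor. The log2 difference between the line effect in females and that in males was 0.12 for Chrna7 (SE 0.29, 95% interval -0.47 to 0.72), -0.05 for Cckbr (SE 0.46, 95% interval -1.0 to 0.91) and 0.35 for Mas1 (SE 0.38, 95% interval -0.42 to 1.13). The smallest unadjusted p of the 3 was 0.358, that of Mas1, in edgeR's quasi-likelihood test with lineage, sex, their interaction and %rRNA as terms. Over all genes 0.0% were called, with 325 genes at an unadjusted p under 0.05 and 0 called by limma-voom. Within the sexes in this fit, Mas1 had a log2 fold change of 0.4 in females (SE 0.28, FDR = 0.633) and of 0.05 in males (SE 0.26, FDR = 0.955). Those of Chrna7 were 0.09 and -0.03, and those of Cckbr -0.02 and 0.03. With %intergenic as a further term the interactions of Chrna7, Cckbr and Mas1 were 0.05, -0.26 and 0.08, and with all 24 rats 0.13, -0.34 and 0.16, none of them called.

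Like most genes tested, the receptors had slopes on the RNA metrics of the libraries. Chrna7 was lower where %rRNA was higher, and Mas1 was higher where %intergenic was higher. In the lineage model the slope per percentage point of %rRNA was -0.48 on the log2 scale for Chrna7 (SE 0.1, FDR = 0.000104, edgeR's quasi-likelihood test), -0.29 for Cckbr (SE 0.13, FDR = 0.0554) and -0.26 for Mas1 (SE 0.08, FDR = 0.00761), so that all 3 were called, as were 76.4% of all genes. The slope per percentage point of %intergenic was 0.3 for Mas1 (SE 0.05, FDR = 3.93e-05, same test), 0.19 for Cckbr (SE 0.08, FDR = 0.0316) and 0.09 for Chrna7 (SE 0.06, FDR = 0.199), so that 2 of 3 were called, beside 68.8% of all genes. Over the 23 rats, %rRNA ran from 1.23 to 3.98 and %intergenic from 8.74 to 13.5.

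The extremes of Chrna7 and Mas1 show this pattern in single rats, and those of Cckbr do so in part. The 2 highest Chrna7 levels, 23.0 and 19.5 CPM, came from the female bHRs of families H02 and H11, each with 1.23% rRNA, and the lowest, 5.95 CPM, from the female bHR of family H08 with 3.63% rRNA. The highest Mas1 level, 27.4 CPM, came from the male bHR of family H02 with 13.5% intergenic, the highest share of the 23 rats. The next, 26.2 CPM, came from the male bLR of family L01 with 12.7%. The lowest Cckbr level, 1.08 CPM, came from the male bLR of family L07 with 3.98% rRNA, the highest of the 23 rats. The rats with the next highest %rRNA had Cckbr levels above the median of 2.59 CPM, with 3.87 CPM at 3.8% in the female bLR of family L10 and 3.54 CPM at 3.63% in the female bHR of family H08.

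Centred on the subgroup means, log2 CPM of Chrna7 correlated with %rRNA (Pearson r = -0.737, permutation p = 0.00035, adjusted over 4 metrics 0.0014, Spearman rho = -0.69 with permutation p = 0.00138, n = 23). Leaving out the 2 rats with the most extreme %rRNA gave -0.697. It was negative in all 4 subgroups, at -0.206 in male bHRs, -0.925 in female bHRs, -0.556 in male bLRs and -0.921 in female bLRs. For Mas1 the correlation with %intergenic was r = 0.739 (permutation p = 1e-05, the smallest that 100000 permutations give, adjusted over 4 metrics 4e-05, rho = 0.707 with permutation p = 0.00022, n = 23), and 0.657 without the 2 farthest rats. It was positive in all 4 subgroups, from 0.708 to 0.845. Mas1 was also lower where RIN, which ran from 8.7 to 9.8, was higher (r = -0.704, permutation p = 8e-05, adjusted 0.00016, rho = -0.639 with permutation p = 0.00128, and r = -0.597 without the 2 farthest rats). Its relation to %rRNA did not pass (r = -0.422, permutation p = 0.0723, adjusted 0.0964, rho = -0.431 with permutation p = 0.0564, and r = -0.554 without the 2 farthest rats). By subgroup that r ran from -0.918 in female bHRs to -0.00121 in female bLRs. For Cckbr 0 of the 4 metrics passed an adjusted p of 0.05. Its r was -0.484 with RIN, 0.456 with %intergenic and -0.417 with %rRNA (permutation p = 0.0416, 0.0484 and 0.0601, adjusted 0.0801 for each, rho = -0.515, 0.265 and -0.448 with permutation p = 0.0149, 0.243 and 0.0425). Without the 2 farthest rats they were -0.46, 0.0171 and -0.43, so the relation to %intergenic rested on those rats. The total count had |r| under 0.1 with each receptor (permutation p = 0.712, 0.681 and 0.951 for Chrna7, Cckbr and Mas1).

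**Figure D3:**
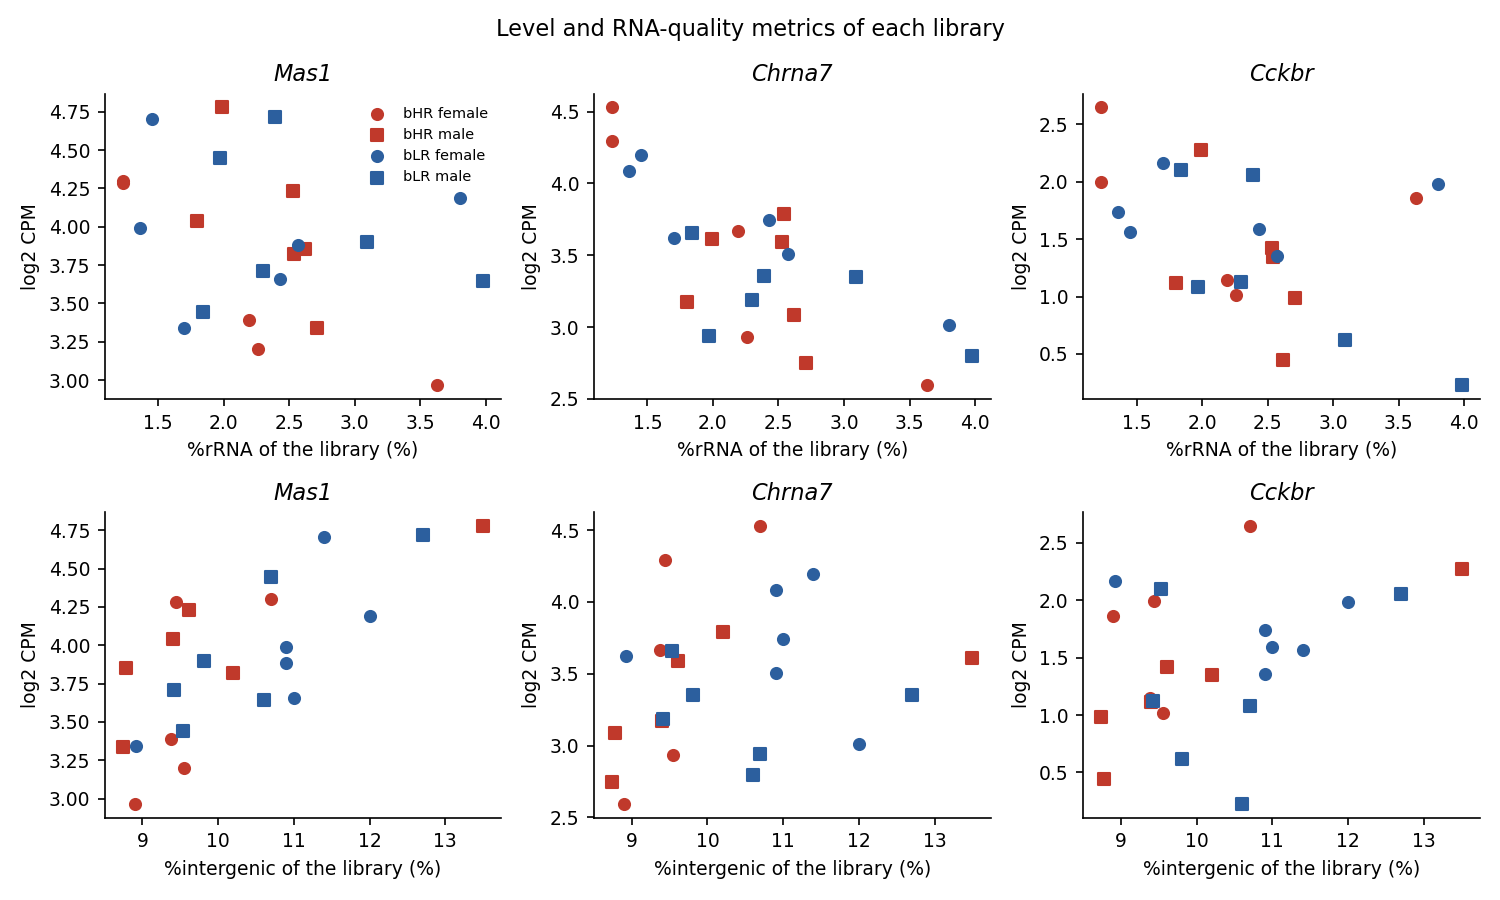
Log2 CPM (vertical axis) of Mas1, Chrna7 and Cckbr against %rRNA (upper row) and %intergenic (lower row) of each library, from the labels. Each point is 1 of 23 rats, red for bHR and blue for bLR, with squares for males and circles for females. Chrna7 falls along %rRNA (r = -0.737 within subgroups) and Mas1 rises along %intergenic (r = 0.739).

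The 2 metrics together went with 58.6% of the variance of Chrna7 within subgroups, 36.2% of that of Cckbr and 69.1% of that of Mas1, against a median of 67.5% over all genes tested. The within-subgroup SD on the log2 scale was 0.512 for Chrna7, 0.602 for Cckbr and 0.515 for Mas1, and 0.348, 0.508 and 0.303 after the metrics were taken out. The median over all genes went from 0.478 to 0.28. Cckbr thus kept more of its spread, above that of 91.4% of the genes tested.

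The correlation of cell type markers with the receptors from rat to rat ranged widely. As a description over 23 libraries, which share depth and RNA quality, Slc17a7 had r = 0.852 with Chrna7, 0.747 with Mas1 and 0.555 with Cckbr within subgroups. Vip, a peptide of interneurons, had r = -0.641, -0.815 and -0.392 with Chrna7, Mas1 and Cckbr. The summed blood genes had r = -0.762, -0.672 and -0.564. With Chrna7, Mas1 and Cckbr in this order, Mag, a myelin gene of oligodendrocytes, had r = 0.608, 0.799 and 0.472. Folr1 had -0.53, -0.464 and -0.391, and the thalamic genes -0.467, 0.189 and -0.194 (Tcf7l2) and 0.462, 0.29 and 0.293 (Slc17a6). The 3 astrocyte genes went different ways, with 0.644, 0.634 and 0.577 for Gfap, 0.753, 0.788 and 0.592 for Aqp4, and -0.374, -0.00364 and 0.114 for Slc1a3, the most abundant of them. Slc17a7 itself had r = -0.851 with %rRNA, and what part cell types or RNA quality have in the levels of the receptors was not tested. Among each other the receptors had r = 0.553 (Chrna7 and Mas1), 0.469 (Chrna7 and Cckbr) and 0.42 (Cckbr and Mas1), and 0.259, 0.139 and -0.151 with %rRNA and %intergenic taken out.

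The relation to behavior was examined within line and sex, because over all rats it repeats the line comparison: LocoScore, the total locomotor count in an unfamiliar box, ran from 1533 to 2949 in bHRs and from 23 to 101 in bLRs. No slope of a receptor on any of the 4 labelled behaviors was called in the model with lineage, sex, %rRNA and %intergenic. The share of all genes called was 0.0% for LocoScore, 0.0% for the percent of time in the open arms of the elevated plus maze (EPM), 0.0% for EPM distance and 0.0% for EPM time immobile, with 187, 652, 178 and 486 genes at an unadjusted p under 0.05 and 0 genes called by limma-voom. In this maze, time in the open arms is read as low and immobility as high anxiety-like behavior.

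Per SD of LocoScore, the log2 slopes were 0.00 for Chrna7 (95% interval -0.16 to 0.16), 0.01 for Cckbr (-0.22 to 0.25) and -0.02 for Mas1 (-0.16 to 0.11). Per SD of EPM distance they were 0.05 (-0.13 to 0.24), 0.09 (-0.19 to 0.37) and -0.08 (-0.25 to 0.08). Per SD of open-arm time they were -0.08 (-0.23 to 0.07), -0.09 (-0.32 to 0.15) and -0.11 (-0.24 to 0.01), all 3 below 0. Time immobile gave the smallest p of the 12 slopes, for Chrna7, with a slope of -0.18 per SD (SE 0.09, unadjusted p = 0.0519, FDR = 0.994, edgeR's quasi-likelihood test). The slopes of Cckbr and Mas1 on it were 0.01 (-0.27 to 0.3) and -0.07 (-0.24 to 0.1).

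Without %rRNA and %intergenic in the model, time immobile gave a slope of -0.32 for Mas1 (SE 0.0968, FDR = 0.0357) and of -0.26 for Chrna7 (SE 0.0986, FDR = 0.0545), both called, while 6443 of 13838 genes were called in the same fit and 0 with the 2 metrics in it. Time immobile had r = -0.477 with %intergenic and 0.222 with %rRNA within subgroups. The slope of Cckbr in that fit was -0.21 (FDR = 0.168).

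Within each line, levels were also correlated with the behaviors, both centred on the subgroup means, as 8 relations per gene with permutations within sex. In the 11 bHRs, Chrna7 was lower in rats with longer immobility (r = -0.857, permutation p = 0.00533, adjusted over 8 relations 0.0426, rho = -0.829 with permutation p = 0.0131 and adjusted 0.105). The share of all genes with such a correlation was not computed. In the fit of time immobile without the 2 metrics, over both lines, 6443 of 13838 genes were called. For open-arm time in bHRs, which did not pass, Chrna7 had r = -0.799 (permutation p = 0.0161, adjusted 0.0643, rho = -0.718 with permutation p = 0.041 and adjusted 0.164). Without the 2 farthest rats these r were -0.651 and -0.582. The adjusted p of the second was 0.0471 without the male of H04 and 0.0345 without that of H12. The p-values were adjusted within each gene, and not over all 24 relations computed for the 3 genes. So adjusted, the relation of Chrna7 to immobility in bHRs was the 1 past 0.05. Its adjusted p ranged from 0.0111 (without the male of H12) to 0.194 (without the female of H02) when single bHRs were left out, and was 0.05 or more in 8 of the 11 cases, the exceptions being the males of H04, H05 and H12. With %rRNA and %intergenic taken out of the level r was -0.612 for time immobile (permutation test, adjusted p = 0.244) and -0.761 for open-arm time (permutation test, adjusted p = 0.0898). By sex, and as a description of few rats, r of Chrna7 with time immobile was -0.975 in the 5 female and -0.501 in the 6 male bHRs, and with open-arm time -0.942 and -0.386. In the same females and males Chrna7 had r = -0.925 and -0.206 with %rRNA, 0.737 and 0.592 with %intergenic, and -0.881 and -0.898 with RIN. With %rRNA and %intergenic, but not RIN, taken out the r with time immobile were -0.756 and -0.45, and those with open-arm time -0.909 and -0.603. Centred on the subgroup means, open-arm time and time immobile tended to rise together in bHRs. They were -33.39% and -28.308 s in the female of H02, and 18.937% and 31.552 s in that of H08. The relations to them are thus not separate, and in the reading given above their negative r point opposite ways.

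Neither relation of Mas1 to these measures in bHRs passed, with r = -0.771 for time immobile (permutation p = 0.0142, adjusted 0.113, rho = -0.788 with permutation p = 0.0106, r without the 2 farthest rats -0.61) and r = -0.692 for open-arm time (permutation p = 0.041, adjusted 0.164, rho = -0.709 with permutation p = 0.0305, r without the 2 farthest rats -0.487). The adjusted p of the first was 0.0266 without the male of H05, and with the metrics taken out r was -0.414 for time immobile and -0.644 for open-arm time (permutation test, adjusted p = 0.97 and 0.434). For Cckbr the largest r was 0.537, with EPM distance in bLRs (permutation p = 0.229, adjusted 0.374, rho = 0.469 with permutation p = 0.181, r without the 2 farthest rats 0.452). In the 12 bLRs, Chrna7 had r = 0.453 with open-arm time (permutation p = 0.0995, adjusted 0.265, rho = 0.42 with permutation p = 0.155, r without the 2 farthest rats 0.359) and r = -0.255 with time immobile (permutation p = 0.399, adjusted 0.399, rho = -0.287 with permutation p = 0.374, r without the 2 farthest rats -0.0613). Open-arm time ran from 0 to 64.0% in bHRs and from 0 to 28.7% in bLRs, and time immobile from 7.21 to 67.1 s and from 4.4 to 260 s.

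**Figure D4:**
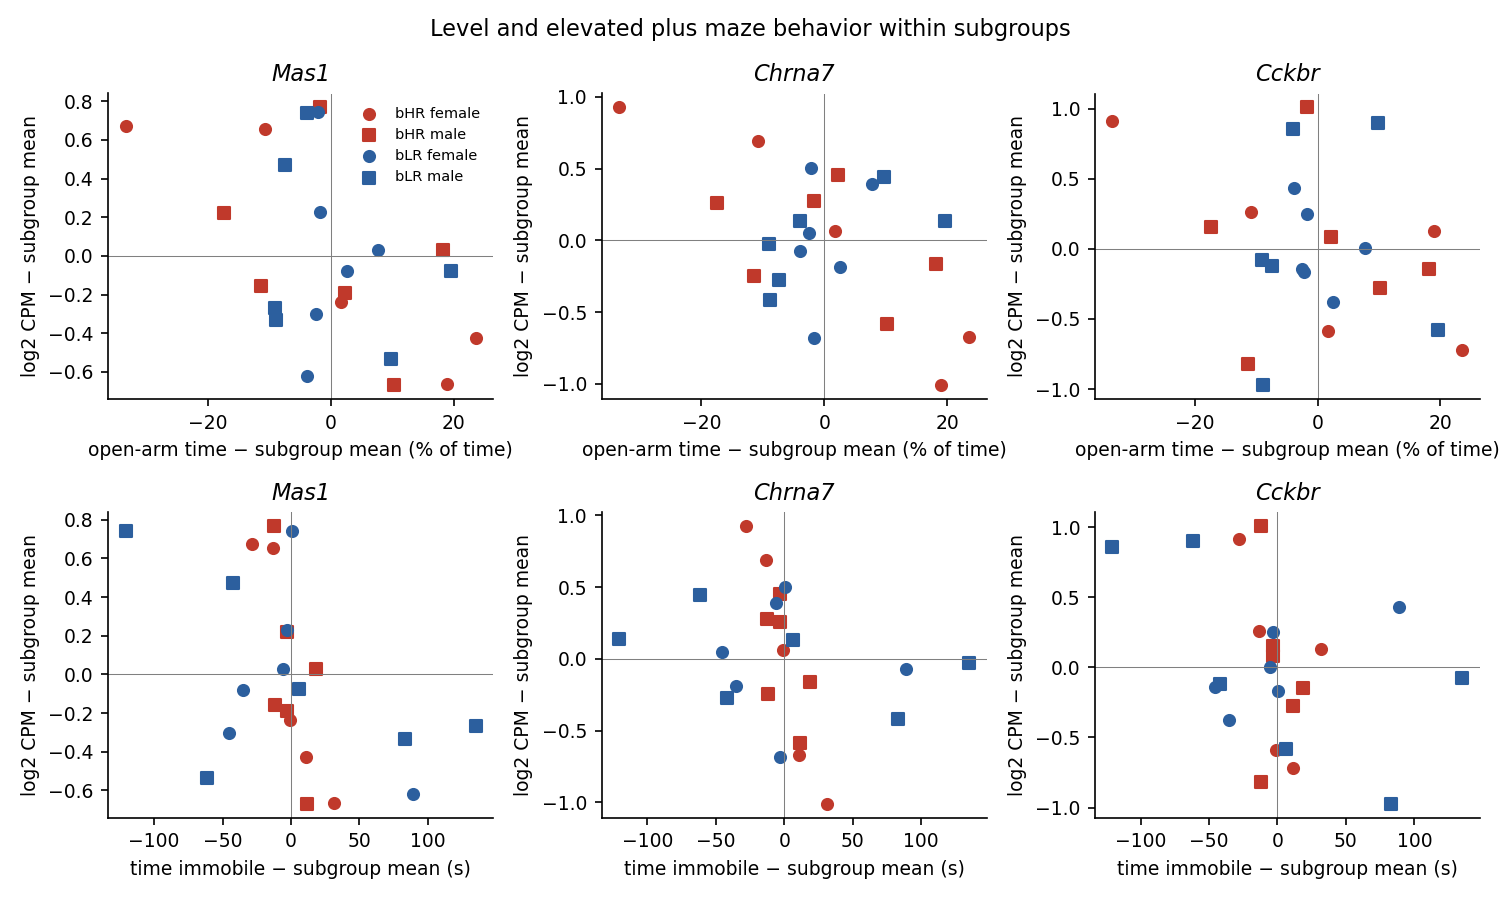
Log2 CPM (vertical axis) against open-arm time in percent (upper row) and time immobile in seconds (lower row), all as differences from the mean of the rat's own line and sex, for Mas1, Chrna7 and Cckbr. Each point is 1 of 23 rats, red for bHR and blue for bLR, with squares for males and circles for females. The bHR points of Chrna7 fall from left to right in both rows (r = -0.799 and -0.857), while those of bLRs do not in the upper row (r = 0.453).

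A test of whether the slopes differ between the lines was added after these correlations had been seen. For open-arm time the slope of Chrna7, with the metrics in the model, was -0.31 per SD in bHRs (SE 0.09) and 0.11 in bLRs (SE 0.08), a difference of 0.43 (SE 0.12, 95% interval 0.17 to 0.68, unadjusted p = 0.00222, FDR = 0.328, edgeR's quasi-likelihood test over all genes). This did not pass FDR < 0.10. Of 13838 genes, 1917 had an unadjusted p under 0.05 for this difference in the same test, and 2315 for the slope in bHRs. The differences for Mas1 and Cckbr were 0.15 (SE 0.12) and 0.09 (SE 0.24). For time immobile the slope of Chrna7 was -0.33 in bHRs (SE 0.11, unadjusted p = 0.00719, FDR = 0.883) and -0.06 in bLRs (SE 0.1), a difference of 0.27 (SE 0.14, unadjusted p = 0.0573). Here 380 genes had an unadjusted p under 0.05 for the difference and 612 for the slope in bHRs.

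Of 135 listed genes of the acetylcholine, cholecystokinin, angiotensin, opioid, amine and other peptide systems and their coupling proteins, 13 could be matched and passed the filter, the 3 receptors among them. None of the 13 was called for lineage or for sex, where 1.34% and 0.354% of all genes were. Within the acetylcholine system, Chrm1, a muscarinic receptor, averaged 18.3 ± 12.7 CPM in bHRs (SD, n = 11) and 17.8 ± 12.4 in bLRs (SD, n = 12), with a log2 fold change of -0.11 (SE 0.17, FDR = 0.881). Ric3, a chaperone that helps alpha7 receptors to assemble, averaged 14.3 ± 5.83 and 13.9 ± 3.79 CPM, with a log2 fold change of -0.06 (SE 0.11, FDR = 0.897). Ric3 had r = 0.863 with Chrna7 over the 23 rats within subgroups and 0.69 after the model terms, given as a description of libraries that share their RNA quality. No ligand or peptidase of the cholecystokinin, angiotensin or opioid systems could be matched.

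Among the amine receptors, Adrb1, a beta adrenergic receptor, had a log2 fold change of -0.35 (SE 0.16, unadjusted p = 0.032, FDR = 0.429, edgeR's quasi-likelihood test), the smallest p of the 13. Adra2a, an alpha2 adrenergic receptor, had 0.27 (SE 0.18, FDR = 0.682) and Htr1a, a serotonin receptor, -0.06 (SE 0.12, FDR = 0.93). Of the coupling genes, Gnaq, which codes for the G protein subunit that links such receptors to phospholipase C, had -0.24 (SE 0.19, FDR = 0.743). The protein kinase C gene Prkcb had -0.03, the arrestin gene Arrb1 -0.11, and the receptor kinase gene Grk2 -0.15 (FDR = 0.961, 0.832 and 0.782). In the slope on %rRNA 12 of the 13 genes were called, beside 76.4% of all genes, and all 12 slopes were below 0, as were those called in 40.2% of all genes, from -0.26 for Mas1 to -1.36 for Gnaq. The gene not called was Adra2a.

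Position on chromosome 1 was not used to choose the receptors beyond the chromosome itself. Within 1 Mb of a receptor the gene table used here, which is held in part, lists 6 genes around Chrna7, 15 around Cckbr and 19 around Mas1, of which 6, 15 and 18 were tested. For lineage 1 of these 39 was called (2.56%, beside 1.34% of all genes), AABR07001512.1, 456.9 kb to the right of Mas1 (48565160 to 48565711, Rnor6), with 0.722 ± 0.536 CPM in bHRs (SD, n = 11), 3.06 ± 0.559 in bLRs (SD, n = 12) and a log2 fold change of 2.22 (FDR = 5.47e-05). It stood alone there, as the other genes around Mas1 had log2 fold changes from -0.36 to 0.24. The nearest listed genes of Mas1 were Mrpl18, of the mitochondrial ribosome, 38.3 kb to the left (log2 fold change -0.04, FDR = 0.962) and Igf2r, a receptor that clears insulin-like growth factor 2, 67.9 kb to the right (0.24, FDR = 0.717). Those of Cckbr were Fam160a2 at 23.3 kb (-0.06, FDR = 0.952) and Prkcdbp at 44.8 kb (-0.02, FDR = 0.976). Those of Chrna7 were farther, Mkrn3 at 835.0 kb (-0.31, unadjusted p = 0.039, FDR = 0.463, edgeR's quasi-likelihood test) and Hmgn5b at 438.0 kb (0.05, FDR = 0.981).

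The genes with a symbol most like each receptor were sought by Pearson r of log2 CPM over the 23 rats after lineage, sex, %rRNA and %intergenic had been taken out, among the 1979 tested genes with a symbol, and are given as a description. For Chrna7 they were Adgra1 (r = 0.845), an adhesion G protein-coupled receptor, Gda (0.832), the guanine deaminase, and Marchf6 (0.81), a ubiquitin ligase. For Cckbr they were Ipcef1 (0.825), Dact2 (0.805) and Trim3 (0.741), the last of which lies 169.3 kb from Cckbr on chromosome 1. For Mas1 they were Galnt18 (0.914), a glycosyltransferase, Klf9 (0.882), a transcription factor induced by glucocorticoids, and Sac3d1 (0.812). None of these 9 genes was called for lineage, the smallest FDR being 0.677, that of Ipcef1. Symbols come mostly from chromosome 1 and reach 1985 of the 32883 genes, and genes without one were often nearer. Among all genes tested, 3 were more like Chrna7 than Adgra1 was and 9 more than Marchf6, 4 more like Cckbr than Ipcef1 and 34 more than Trim3, and 0 more like Mas1 than Galnt18 and 31 more than Sac3d1.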

How the data were processed

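Per the labels and the study's methods, poly-A libraries were sequenced as read pairs, aligned by the authors with STAR 2.7.3a to Rnor6 and assigned to Ensembl genes with Subread 2.0.0. What the authors deposited are unfiltered, unnormalized counts of reads for each gene. %rRNA, %intergenic, RIN, age and behavior are the submitters' sample labels, with fractions turned into percent.

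Genes were tested where 6 or more of the 23 rats (25%) reached 1 CPM, with TMM normalization and the quasi-likelihood test of edgeR 4.0.16 in R 4.3.3, Benjamini-Hochberg adjustment over all 13838 genes and FDR < 0.10 as threshold. Lineage and sex were fitted with %rRNA and %intergenic, and the interaction with %rRNA. For each behavior, scaled to SD 1 within line and sex, a term was added to the lineage model. Log2 CPM carried a prior count of 2. Correlations used 100000 permutations, two-sided (Python 3.11.15, scipy 1.17.1, seed 20). Rats are separate animals, though relatives, and p-values measure the spread among them. The alternatives tried were 2 other filters, DESeq2 1.42.0, limma-voom (limma 3.58.1), RLE scaling, all 24 rats, other covariates, family as random effect or block, each sex alone (with lineage and %rRNA as terms) and each rat left out.

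The pairing of rats comes from the family labels, and the estimated correlation of a family's 2 rats was 0.00852 over all genes.

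The receptors, the gene and marker lists and the tests were chosen with earlier results of these data known. Named are the receptors, the matched genes of the receptor systems (1 of them is counted but not reported here), the nearest and the called genes within 1 Mb, and the 3 most alike genes of each receptor. A slope per line was added after the data were seen. The fits were checked on simulated counts with the same dispersion for every gene and no slope on %rRNA or %intergenic. That check does not cover the spread and the slopes on these metrics in the real data.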

Additional observations from a re-analysis of the deposited data

How the results depend on the processing

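In the fits for lineage, sex and their interaction 0 of the 3 receptors were called under each alternative run, single rats left out for lineage and sex included. The direction of the line difference changed in several of them, without a call. The log2 fold change of Chrna7 was -0.04, but 0.01 with all 24 rats, 0.03 with %rRNA as the only technical covariate and 0.12 in females alone. That of Cckbr was -0.11, but 0.0021 with %rRNA alone and 0.1 in males alone. That of Mas1 was -0.06, but 0.12 without technical covariates, 0.21 with %rRNA alone, 0.06 in males alone and 0.39 in females alone, and the cause of these changes was not tested. The fits in males or females alone held lineage and %rRNA as terms but not %intergenic, so they differ from the main fit in that as well. Over the fits that leave out 1 rat the line differences ranged from -0.13 to 0.03 (Chrna7), from -0.29 to 0.01 (Cckbr) and from -0.21 to 0.01 (Mas1), and the sex differences from 0.21 to 0.34, from 0.28 to 0.58 and from -0.34 to -0.17. With the labelled family as a replicate block the sex differences were 0.14, 0.35 and -0.33, and 19 genes in all were called in place of 49. The block changed no call of a receptor. Family as a random effect gave line differences of -0.04, -0.17 and -0.06.

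Without %rRNA and %intergenic, 2 receptors rather than 0 were called for time immobile (Chrna7 -0.26, Mas1 -0.32), the slope of Cckbr on it was -0.21 rather than 0.01, and the slopes of Mas1 were 0.03 on LocoScore and 0.19 on EPM distance rather than -0.02 and -0.08. Those of Chrna7 and Cckbr on EPM distance were 0.16 and 0.25 rather than 0.05 and 0.09 (FDR = 0.29 and 0.221), and the sex differences were 0.46, 0.44 and -0.18 (Chrna7, Cckbr, Mas1) rather than 0.23, 0.42 and -0.26. With the 2 metrics removed from the level, 0 rather than 1 of the 24 correlations passed a p of 0.05 adjusted within each gene only, that of Chrna7 with time immobile in bHRs being -0.612. Signs changed for Chrna7 in bLRs with EPM distance (-0.0127) and time immobile (0.141), for Cckbr in bHRs with time immobile (0.0806), and for Mas1 with LocoScore (-0.207 in bHRs, 0.193 in bLRs) and EPM distance (-0.104 in bHRs, -0.0669 in bLRs).

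With each rat of the line left out, r of Chrna7 ranged from -0.928 to -0.77 with time immobile and from -0.863 to -0.697 with open-arm time in bHRs. That of Mas1 ranged from -0.841 to -0.699 with time immobile in bHRs, from -0.291 to 0.0384 with LocoScore in bLRs and from -0.0411 to 0.535 with EPM distance in bLRs, and that of Cckbr from -0.215 to 0.495 with open-arm time in bLRs. The slope per line, added after the data were seen, gave no call of a receptor.

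The genes called for lineage numbered 185, and 329 with DESeq2, 294 with all 24 rats, 56 without technical covariates, 18 in males and 8 in females alone (both without %intergenic), and from 97 to 436 with a rat left out. Those called for sex numbered 49, and 157 with DESeq2, 13 without technical covariates, 18 with %rRNA alone and from 18 to 159 with a rat left out. In males alone, again without %intergenic, 0 rather than 1 of the genes around the receptors was called, AABR07001512.1 having 2.08 there (FDR = 0.129). Cckbr had the fewest counts of the receptors, with 15 in its lowest library.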
